A study of Arabidopsis thaliana with 12 samples.

Results

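Expansins, xyloglucan endotransglucosylase/hydrolases (XTH) and the cellulose synthase-like (CSL) enzymes loosen, re-link and build the primary cell wall. They were read here in Arabidopsis thaliana shoots sprayed 1 h earlier with trans-zeatin (tZ), a natural cytokinin. Members were the genes whose single symbol in the probe annotation of the Affymetrix ATH1 array began, with or without an AT prefix, with EXPA, EXPB, EXLA, EXLB, XTH, XTR, CESA or CSL. The rule found 35 of 13350 singly named genes. They were 10 alpha-expansins, 4 beta-expansins, 4 expansin-like genes, 9 XTH genes and 8 CSL genes. Of 22746 probe sets tested, 8730 name no gene, so families have further genes outside these counts. Every family count and share below is of the genes found by this rule, not of the whole family. No probe set was named with CESA or XTR in that annotation, so the cellulose synthases themselves were not analysed here. Each member had 1 probe set, and all 35 matched a locus of the RefSeq table (TAIR10.1).

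RNA came from the aerial parts of seedlings aged 2 weeks, grown vertically on Murashige and Skoog agar. The 4 groups of 3 arrays were wild type (Col-0) sprayed with 20 µM tZ, mutant sprayed with 20 µM tZ, wild type sprayed with 0.02% DMSO, and mutant sprayed with 0.02% DMSO. The mutant is labelled with SALK_098604 and SALK_054752. These insertions are known to hit ARR10 and ARR12, type-B regulators through which cytokinin activates transcription, and from the labels it is unclear if both were in the same plant. Nor is it stated that replicate arrays stem from separate cultures, so p-values reflect only the scatter among the arrays at hand, which can be technical.

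Plant cells expand when their wall yields to turgor. Expansins loosen the contacts between cellulose and matrix glucans without cutting them, and XTH enzymes cut xyloglucan chains and join them to others. CSLC proteins make the glucan backbone of xyloglucan, CSLA proteins make mannans, and CSLD proteins are best known from tip-growing cells such as root hairs. Cytokinin is a hormone of shoot growth and cell division, and genes of wall loosening are among those known to change with growth hormones.

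Values are MAS5 signals, a brightness per probe set on a linear scale. A probe set's signal was not set against that of another. Changes are differences of log2(signal + 10), which understates the change of dim genes. A gene passed at a limma adjusted p under 0.05 over all 22746 probe sets tested. The highest signal of 27 bacterial control probe sets, with no target in plants, was 11.2, and a gene at or below this was taken as not above background. Of the 35 members, 22 lay above it on every array and 6 lay at or below it on every array. The 6 were EXPA18, EXPA21, XTH20, XTH21, XTH26 and XTH29. The other 7 crossed it. EXPA18 and EXPA7, which are known from root hairs, were 2 of the dim ones, and EXPA7 reached at most 14.0.

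The leaf markers LHCB4.1, LHCB4.2, LHCB4.3, RCA and PORB, the 5 matched by name of 22 listed, summed to between 14481 and 17085 on every array. Of these LHCB4.3 was lower with tZ in both genotypes (log2 change -0.63, limma adjusted p = 0.0033 in wild type, and -0.74, adjusted p = 0.0010 in the mutant), and the other 4 did not pass. The part of these markers in the results below was not tested. Of 19 root markers 3 were matched by name, PYK10, EXPA7 and EXPA18. Their summed signal ran from 499 to 580 on tZ arrays of wild type, against 648 to 1111 under DMSO, and from 507 to 750 on tZ arrays of the mutant, against 904 to 1275 under DMSO. EXPA7 and EXPA18 were near background and PYK10 made up nearly all of the sum. It was lower with tZ in both genotypes (log2 change -0.64, adjusted p = 0.012, and -0.83, adjusted p = 0.0022). The touch list had 1 gene of 11 matched by name, STZ (ZAT10), which did not pass with tZ in either genotype. XTH22 (TCH4), the touch-induced XTH, was not matched by name.

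The tZ and DMSO arrays also differed in their control probe sets. The ratio of 5' to 3' signal for actin was 0.252 to 0.328 on the 6 tZ arrays and 0.0409 to 0.0579 on the 6 DMSO arrays. For GAPDH it was 0.704 to 0.837 on tZ arrays and 0.226 to 0.294 on DMSO arrays. For ubiquitin it was 0.591 to 0.720 on tZ arrays and 0.198 to 0.227 on DMSO arrays. None of these ratios overlapped, so the spray and this array difference cannot be told apart in any comparison of tZ with DMSO. This holds for every tZ result below. In bulk RNA, fewer cells of a type and less RNA per cell cannot be told apart.

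With tZ, 12 of 35 members passed in wild type, 8 higher and 4 lower, which is 34.3%. Over all probe sets 43.6% passed, 18.2% higher and 25.4% lower, so the wall genes as a whole did not pass more often than other probe sets. The members' median log2 change was 0.03, beside -0.08 over all probe sets. Among the 24 members with a mean signal above background 12 passed, or 50%, beside 61.1% of all such probe sets. For 16 of 35 members (45.7%) the tZ and DMSO arrays did not overlap, beside 50.4% of all probe sets. With quantile normalization the split of calls was 9 higher and 3 lower, and with a common median 8 higher and 2 lower. The rises in wild type were those of EXPA4, EXPA9, EXPA15, EXPA16, EXPB3, EXLB1, XTH19 and XTH32. The falls were those of EXLA1, XTH16, CSLA03 and CSLD2.

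In the mutant 9 of 35 passed with tZ, or 25.7%, beside 42.8% of all probe sets, of which 17.9% were higher and 24.9% lower. The 5 rises were those of EXPA4, EXPA9, EXPB3, XTH18 and XTH19, and the 4 falls those of EXPB1, EXLA1, CSLA03 and CSLD2. The median was 0.07, beside -0.07 over all probe sets. Under quantile normalization or a common median the split was 6 higher and 3 lower. Of the 24 brighter members 9 passed, or 37.5%, beside 60.6%, and for 12 of 35 (34.3%) the groups did not overlap, beside 51.6% of all probe sets. EXPA4, EXPA9, EXPB3, EXLA1, XTH19, CSLA03 and CSLD2 passed in both genotypes in the same direction, 5 genes passed in wild type and not in the mutant, 2 in the mutant and not in wild type, and 21 in neither. Whether these lists differ is a matter of the interaction, given further on, which no member passed.

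**Figure D1:**
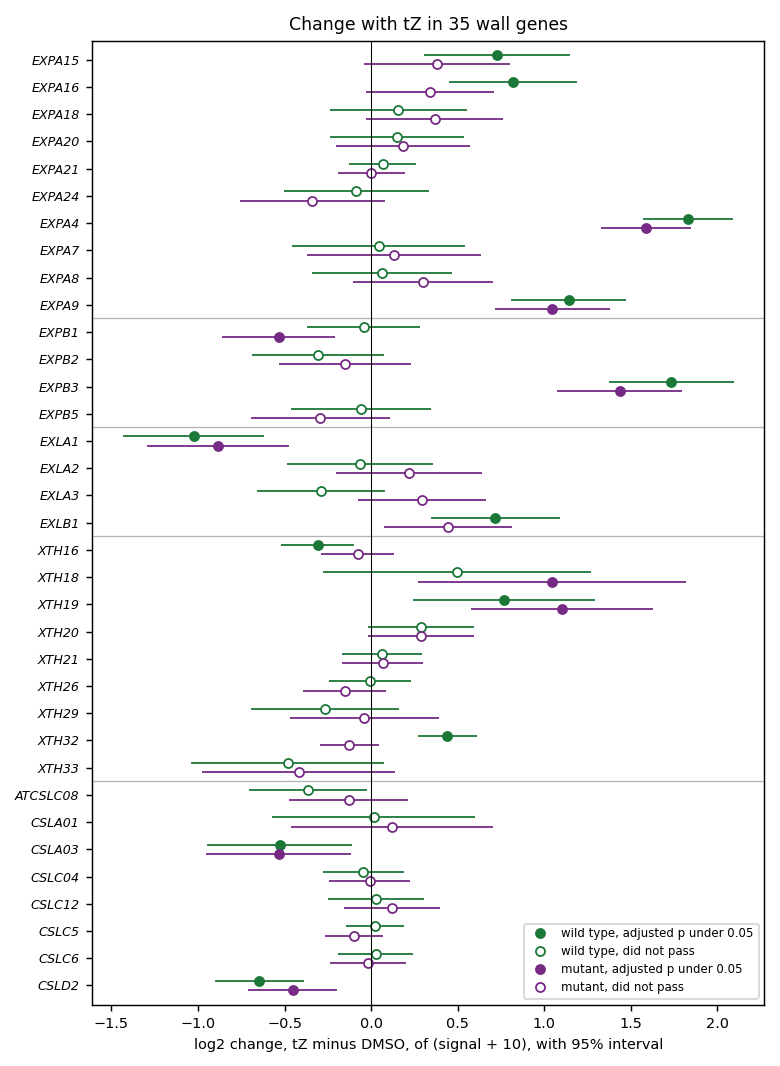
Change with tZ of the 35 members, grouped by family with grey lines, as log2 change of signal + 10 (horizontal axis, tZ minus DMSO). Points are limma estimates in wild type (green) and the mutant (purple), bars are 95% intervals without adjustment for many tests, and filled points passed at an adjusted p under 0.05. EXPA4, EXPB3 and EXPA9 lie farthest to the right in wild type and EXLA1 farthest to the left.

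Of 10 alpha-expansins, 4 rose (40%) and 0 fell in wild type, beside 18.2% higher and 25.4% lower over all probe sets. In the mutant 2 rose (20%) and 0 fell, and that share of rises is near the 17.9% of all probe sets. EXPA4 (AT2G39700) had the largest rise of the members. Its signal was 182, 169 and 177 in tZ-sprayed wild type, against 35.5, 39.9 and 53.1 under DMSO. Mutant values were 145, 152 and 135 with tZ, against 38.6, 48.9 and 36.8 under DMSO. Every tZ array lay far above every DMSO array, and the 2 genotypes did not overlap under tZ. The log2 change was 1.83 in wild type (SE 0.12, adjusted p = 3.5e-08) and 1.59 in the mutant (SE 0.12, adjusted p = 1.3e-07). The ratio of mean signals was 4.11 and 3.48. Only 0.91% of probe sets had a larger change in wild type and 1.49% in the mutant.

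EXPA9 (AT5G02260) was at or near background without tZ. It read 34.1, 29.3 and 30.8 in tZ-sprayed wild type, against 6.43, 7.86 and 12.5 under DMSO, where 2 of 3 arrays lay at or below 11.2. In the mutant it read 33.1, 31.3 and 27.1 with tZ, against 9.21, 7.03 and 12.9 under DMSO. The groups did not overlap in either genotype, and all tZ arrays were above background. The log2 change was 1.14 in wild type (SE 0.15, adjusted p = 3.0e-05) and 1.05 in the mutant (SE 0.15, adjusted p = 6.8e-05). With a pseudocount of 1 in place of 10 these were 1.75 and 1.59, and with 50 they were 0.47 and 0.43, so the size of its change is not fixed by these data.

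EXPA16 (AT3G55500) read 35.5, 43.1 and 46.6 with tZ in wild type, against 23.2, 15.1 and 19.9 under DMSO (log2 change 0.82, SE 0.17, adjusted p = 0.0013; 0.40 with a pseudocount of 50). The mutant gave 28.0, 23.4 and 42.5 with tZ, against 24.3, 22.2 and 19.8 under DMSO (log2 change 0.34, SE 0.17, adjusted p = 0.13). The wild type groups were apart, while in the mutant 1 tZ array stood above the rest. EXPA15 (AT2G03090) read 114, 69.7 and 77.5 with tZ in wild type, against 42.3, 46.0 and 55.2 under DMSO (log2 change 0.73, SE 0.20, adjusted p = 0.0074; 0.47 with a pseudocount of 50). The mutant arrays read 95.2, 94.5 and 71.3 with tZ, against 90.3, 52.6 and 54.4 under DMSO, and did not pass (adjusted p = 0.14). One DMSO array, mutant DMSO replicate 1, sat among the tZ values, and without it both EXPA15 and EXPA8 passed there (adjusted p = 0.017 and 0.015).

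EXPA8 read 29.3 to 33.4 with tZ in wild type, against 25.9 to 33.0 under DMSO, with a log2 change of 0.06 (95% interval -0.34 to 0.47). EXPA20 read 26.0 to 33.4 with tZ in wild type, against 24.1 to 30.6 under DMSO, with a change of 0.15 (-0.24 to 0.53). Both groups overlapped for either gene. EXPA7, EXPA18, EXPA21 and EXPA24 gave no group that lay wholly above background.

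Beta-expansins, the second class of wall-loosening expansins, had 1 strong rise among 4. In each genotype 1 of 4 (25%) was higher, beside 18.2% of all probe sets in wild type and 17.9% in the mutant. In wild type 0 fell, beside 25.4%, and in the mutant 1 fell (25%), beside 24.9%. EXPB3 (AT4G28250) read 227, 170 and 167 with tZ in wild type, against 34.8, 47.9 and 69.0 under DMSO. Mutant values were 167, 180 and 179 with tZ, against 59.5, 52.4 and 64.0 under DMSO. The lowest tZ array of either genotype was more than 2 times the highest DMSO array. The log2 change was 1.73 in wild type (SE 0.17, adjusted p = 1.2e-06) and 1.44 in the mutant (SE 0.17, adjusted p = 7.7e-06), and 1.11% and 2.11% of probe sets changed by more. EXPB1 (AT2G20750) fell in the mutant, to 15.1, 21.2 and 23.5 with tZ, against 32.5, 33.3 and 33.3 under DMSO (log2 change -0.53, SE 0.15, adjusted p = 0.011; -0.25 with a pseudocount of 50). Leaving out tZ replicate 1 of the mutant ended that call (adjusted p = 0.058), and over 21 alternatives the value ran from 0.0042 to 0.058. In wild type EXPB1 read 32.1, 31.4 and 28.4 with tZ, against 25.2, 30.2 and 41.7 under DMSO, with overlap (log2 change -0.04, adjusted p = 0.86). EXPB2 and EXPB5 did not exceed 15.3 on any array and did not pass.

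The expansin-like proteins share the fold of expansins, and wall loosening has not been shown for them. In wild type they went both ways, with 1 of 4 higher and 1 of 4 lower (25% each), beside 18.2% and 25.4% of all probe sets. In the mutant 0 rose and 1 fell (25%), beside 17.9% and 24.9%. EXLA1 (AT3G45970) had the largest fall of the members, with 715, 1046 and 972 in tZ-sprayed wild type, against 1923, 2301 and 1410 under DMSO. In the mutant it had 749, 740 and 1028 with tZ, against 1270, 1647 and 1740 under DMSO. No tZ array reached a DMSO array of its genotype. The log2 change was -1.03 in wild type (SE 0.19, adjusted p = 4.8e-04) and -0.88 in the mutant (SE 0.19, adjusted p = 0.0016), with 3.21% and 5.05% of probe sets falling by more.

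EXLB1 (AT4G17030) rose in wild type. It read 207, 215 and 174 with tZ in wild type, against 131, 79.0 and 151 under DMSO (log2 change 0.72, SE 0.17, adjusted p = 0.0036). Without wild type DMSO replicate 2, its lowest array, the change was 0.46. In the mutant EXLB1 read 198, 198 and 212 with tZ, against 144, 127 and 171 under DMSO. These did not overlap and just missed the threshold (log2 change 0.44, SE 0.17, adjusted p = 0.052), and 11 of 21 alternatives put it under 0.05 (range 0.0042 to 0.18). EXLA2 did not pass in either genotype, with changes of -0.06 and 0.22. EXLA3, the direct neighbour of EXLA1 with no protein-coding gene between them, had changes of -0.29 in wild type (adjusted p = 0.20, and 0.020 without wild type tZ replicate 2) and 0.29 in the mutant (adjusted p = 0.20). The neighbours therefore did not share a called change.

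**Figure D2:**
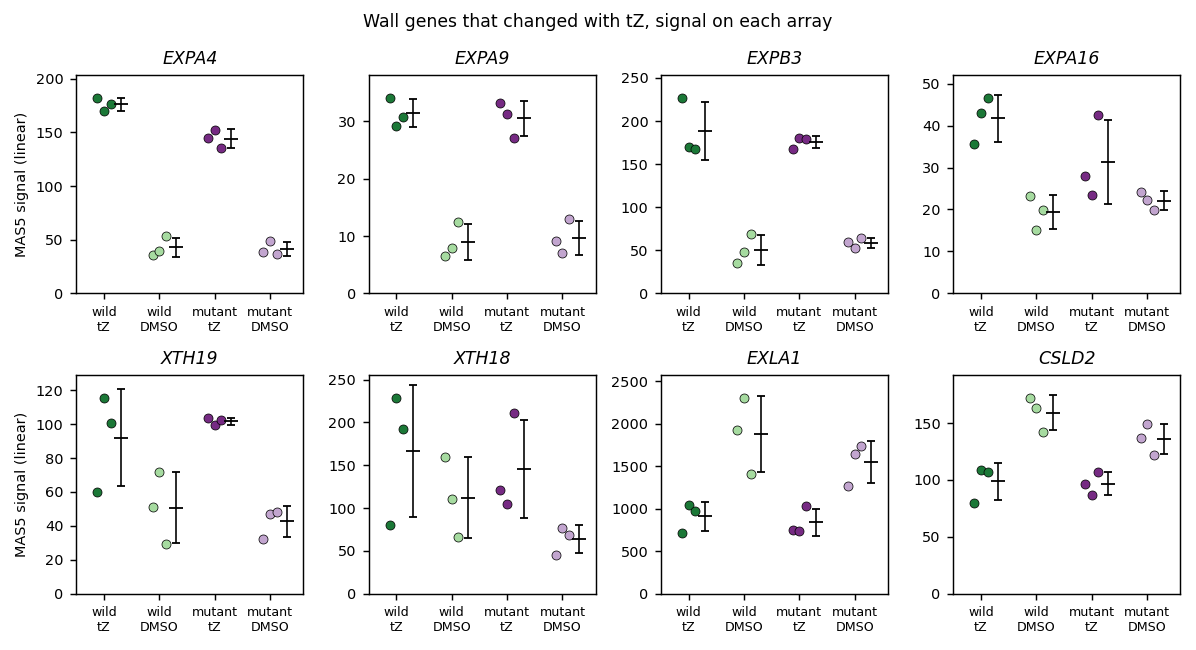
MAS5 signal on each array (vertical axis, linear from 0) for 8 members that passed with tZ in 1 or both genotypes. Dots are arrays, and the dash with its bar is the mean ± SD of 3. The tZ arrays lie apart from and above the DMSO arrays for EXPA4, EXPA9 and EXPB3 and apart from and below them for EXLA1 and CSLD2, while the wild type groups overlap for XTH18 and XTH19.

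Of 9 XTH genes, 5 were above background on every array. In wild type XTH19 and XTH32 rose and XTH16 fell, in the mutant XTH18 and XTH19 rose, and XTH33 passed in neither. The 2 rises of 9 (22.2%) stand beside 18.2% of all probe sets in wild type and 17.9% in the mutant. Falls were 1 of 9 (11.1%) in wild type, beside 25.4%, and 0 in the mutant, beside 24.9%. XTH18 (AT4G30280) and XTH19 (AT4G30290) are adjacent genes with no protein-coding gene between them. Both are known mainly from roots. XTH19 read 60.2, 115 and 101 with tZ in wild type, against 51.3, 71.7 and 29.5 under DMSO. The mutant gave 103, 99.2 and 102 with tZ, against 32.1, 47.3 and 48.4 under DMSO. The wild type groups overlapped by 1 array on each side and the mutant groups did not.

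For XTH19 the log2 change was 0.77 in wild type (SE 0.24, adjusted p = 0.020) and 1.1 in the mutant (SE 0.24, adjusted p = 0.0020). The wild type call was lost without tZ replicate 2 (adjusted p = 0.095), tZ replicate 3 (0.074) or DMSO replicate 3 (0.10, with a change of 0.49), and with only the groups compared in the fit (0.063). With a pseudocount of 50 the changes were 0.50 and 0.72. XTH18 rose in the mutant, with 121, 105 and 211 under tZ, against 45.6, 76.3 and 69.0 under DMSO (log2 change 1.04, SE 0.36, adjusted p = 0.030). It lost this call without tZ replicate 3 (0.14), DMSO replicate 1 (0.12) or DMSO replicate 3 (0.053) of the mutant. In wild type XTH18 read 80.7, 228 and 192 with tZ, against 160, 110 and 65.9 under DMSO (log2 change 0.50, SE 0.36, adjusted p = 0.30, and 0.035 without wild type tZ replicate 1). The SE of XTH18 was the largest of any member, so its size is poorly known in either genotype. The root marker PYK10 was lower with tZ, as given above. Whether root tissue had a part in the changes of XTH18 and XTH19 was not tested.

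XTH32 (AT2G36870), of the class in which hydrolysis of xyloglucan is predicted, rose in wild type by a small amount with little spread. It read 342, 300 and 326 with tZ, against 234, 241 and 231 under DMSO (log2 change 0.44, SE 0.08, adjusted p = 3.9e-04). The mutant arrays read 242, 261 and 225 with tZ, against 253, 249 and 295 under DMSO, with overlap (log2 change -0.13, SE 0.08, adjusted p = 0.24). XTH16 (AT3G23730) fell in wild type, to 251, 292 and 316 with tZ, against 392, 357 and 322 under DMSO (log2 change -0.31, SE 0.10, adjusted p = 0.020). That call was lost without wild type tZ replicate 1 (0.10) or DMSO replicate 1 (0.085), and with arrays scaled to a common median (0.054). In the mutant the log2 change of XTH16 was -0.08 (adjusted p = 0.59).

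XTH33, which is anchored at the plasma membrane, read 27.1, 53.4 and 69.7 with tZ in wild type, against 92.2, 80.1 and 45.4 under DMSO (log2 change -0.48, SE 0.26, adjusted p = 0.16). It passed without wild type tZ replicate 3 (0.045) or DMSO replicate 3 (0.030), the array of each group nearest to the other group. In the mutant its change was -0.42 (adjusted p = 0.23), and it passed with only the groups compared (0.037). XTH20, XTH21, XTH26 and XTH29 were not above background on any array. These 4 include XTH21 and XTH26, known from roots and root hairs.

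All CSLC genes known in Arabidopsis were measured, and none passed with tZ in either genotype. CSLC04 (AT3G28180) read 375, 492 and 485 with tZ in wild type, against 472, 452 and 463 under DMSO, a log2 change of -0.05 with a 95% interval of -0.28 to 0.19. In the mutant the change was -0.01 (-0.24 to 0.22). The log2 change of CSLC5 was 0.02 (-0.15 to 0.19) in wild type and -0.10 (-0.27 to 0.07) in the mutant. For CSLC6 it was 0.03 (-0.19 to 0.24) in wild type and -0.02 (-0.24 to 0.20) in the mutant. For CSLC12 it was 0.03 (-0.25 to 0.31) in wild type and 0.12 (-0.16 to 0.40) in the mutant. These 4 intervals bound any change to less than 0.41 on the log2(signal + 10) scale in either genotype, without adjustment for many tests.

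ATCSLC08 (AT2G24630) was less even. It read 40.9, 37.5 and 47.2 with tZ in wild type, against 56.3, 56.8 and 56.7 under DMSO. These groups did not overlap, and the gene did not pass (log2 change -0.36, SE 0.16, adjusted p = 0.082). Mutant values were 41.9, 44.9 and 48.4 with tZ, against 57.5, 63.4 and 33.9 under DMSO (adjusted p = 0.58). Mutant DMSO replicate 3 held the lowest value of all 12 arrays, and without it ATCSLC08 passed in wild type (adjusted p = 0.011) and in the mutant (0.025). It also passed in wild type with only the groups compared (0.030) and without the dimmest 40% of probe sets (0.044).

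**Figure D3:**
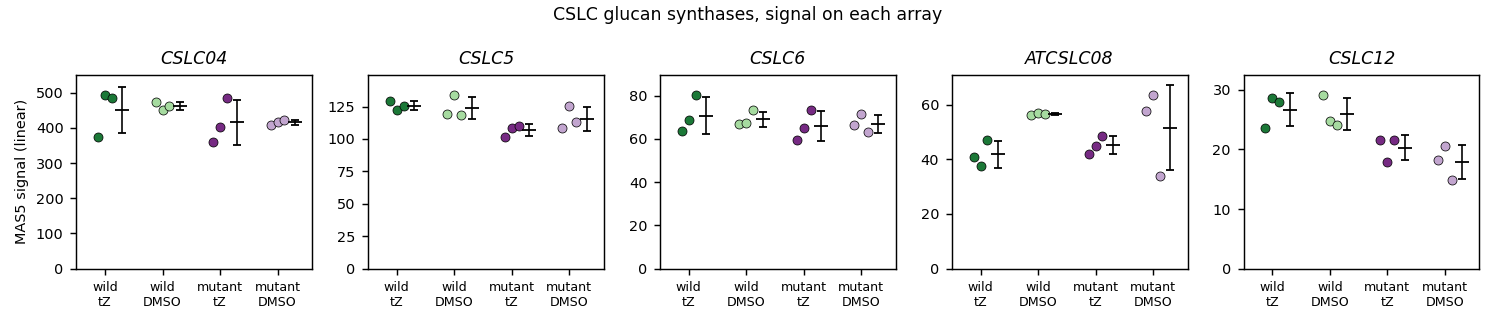
MAS5 signal on each array (vertical axis, linear from 0) of the 5 CSLC genes, the glucan synthases of xyloglucan, with the mean ± SD of 3 beside each group. Within each genotype the tZ and DMSO arrays overlap for CSLC04, CSLC5, CSLC6 and CSLC12, and ATCSLC08 is lower with tZ in wild type and holds 1 low mutant DMSO array.

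Of 8 CSL genes the same 2 passed in each genotype, and both fell. This share of 25% is near the 25.4% in wild type and 24.9% in the mutant of all probe sets that were lower. The count of falls therefore says nothing particular about CSL genes. In each genotype 0 of 8 rose, beside 18.2% of all probe sets in wild type and 17.9% in the mutant. Of the 7 CSL genes with a mean above background 2 passed in each genotype (28.6%), beside 61.1% and 60.6% of all such probe sets. Whether these few genes differ from other probe sets was not tested. CSLD2 (AT5G16910) read 80.0, 109 and 107 with tZ in wild type, against 172, 163 and 142 under DMSO. In the mutant it read 96.2, 86.8 and 107 with tZ, against 137, 149 and 122 under DMSO. The groups were apart in both genotypes. The log2 change was -0.64 in wild type (SE 0.12, adjusted p = 4.8e-04) and -0.45 in the mutant (SE 0.12, adjusted p = 0.0066), and it held in all 21 alternatives in each. CSLA03 (AT1G23480) read 97.3, 118 and 130 with tZ in wild type, against 226, 155 and 137 under DMSO (log2 change -0.53, SE 0.19, adjusted p = 0.041). The mutant gave 79.4, 122 and 134 with tZ, against 135, 182 and 176 under DMSO (log2 change -0.53, SE 0.19, adjusted p = 0.039).

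The calls of CSLA03 were marginal. In wild type 9 of 21 alternatives lost the call, with the highest adjusted p of 0.19 and a change of -0.33 without wild type DMSO replicate 1. It was 0.15 without wild type tZ replicate 1, 0.074 without tZ replicate 2, 0.054 without DMSO replicate 2 and 0.050 without mutant DMSO replicate 3. Processing choices also ended the call: quantile normalization (0.073), a common median (0.069), no trend (0.061) and array weights (0.06). In the mutant 6 of 21 lost the call, with 0.19 and a change of -0.33 without mutant tZ replicate 1, 0.13 without DMSO replicate 2 and 0.11 without DMSO replicate 3. Quantile normalization (0.072), a common median (0.066) and no trend (0.059) ended it there too. CSLA01 stayed at or near background, with at most 14.7, and did not pass.

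Other wall genes were read from lists of cellulose synthesis, pectin, xylan, wall proteins and galactosidases, which hold 266 genes. Of these 10 were matched by name, with 2 higher and 3 lower in each genotype. These 5 of 10 (50%) are near the 43.6% and 42.8% of all probe sets that passed, so the count says nothing particular about them. COB (COBRA), an anchored protein that orients cellulose deposition, read 471, 546 and 563 with tZ in wild type, against 230, 247 and 206 under DMSO (log2 change 1.17, SE 0.08, adjusted p = 5.0e-08). The mutant arrays read 472, 474 and 515 with tZ, against 210, 203 and 213 under DMSO (log2 change 1.18, SE 0.08, adjusted p = 4.8e-08). The groups lay far apart in both, and the interaction was 0.01.

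PMEPCRF, a pectin methylesterase, which removes methyl groups from pectin, averaged 226 ± 26.0 with tZ in wild type and 158 ± 16.5 under DMSO (SD, n = 3 each; limma adjusted p = 8.6e-04), and rose in the mutant too (log2 change 0.45). GAUT15, of the pectin-building galacturonosyltransferase family, averaged 62.0 ± 12.0 with tZ in wild type and 118 ± 16.3 under DMSO (limma adjusted p = 2.8e-04), and fell in the mutant by 0.79 on the log2 scale. The beta-galactosidase gene BGAL16 fell by 0.68 in wild type and 0.53 in the mutant on that scale. IRX15, a xylan synthesis gene, passed as lower, but each of its arrays was at or below background, so no size can be given. PME61, ATPMEPCRB, ATPMEPCRD, ADPG1 and GUT2 did not pass.

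Dependence of the tZ response on genotype was read from the interaction, the change in the mutant minus that in wild type. By limma 0 of 35 members passed, beside 0% of all probe sets, and 3 members were under an unadjusted p of 0.05 (8.57%, beside 7.03% of all probe sets). The smallest p was that of XTH32, whose response differed by -0.57 on the log2 scale, lower in the mutant (SE 0.11, 95% interval -0.81 to -0.32, adjusted p = 0.28; range over 20 alternatives 0.19 to 0.54). All 20 alternatives kept the sign of this difference and 0 passed. EXLA3 had the next smallest p, with a difference of 0.58 (SE 0.24, adjusted p = 0.66), and the third was EXPB1 with -0.49 (SE 0.22, adjusted p = 0.70).

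For the strong rises the interval of the interaction spanned 0. The interaction was -0.24 for EXPA4 (95% interval -0.61 to 0.13), -0.30 for EXPB3 (-0.81 to 0.21) and -0.09 for EXPA9 (-0.56 to 0.38). Of the 5 genes that passed in wild type and not in the mutant, XTH32 is given above and its interval lay below 0 without passing the adjusted test. For the other 4 the interaction was -0.48 for EXPA16 (-1.0 to 0.04), -0.35 for EXPA15 (-0.94 to 0.25), -0.27 for EXLB1 (-0.80 to 0.25) and 0.23 for XTH16 (-0.07 to 0.53). The intervals of these 4 span 0, so a difference between genotypes was not shown for them, nor was a difference within the stated bounds shown to be absent.

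Without added cytokinin, 0 of 35 members passed between mutant and wild type by limma, beside 0.0132% of all probe sets. At an unadjusted p under 0.05 there were 3 members, or 8.57%, beside 9.50% of all probe sets. EXLA3 (AT3G45960) had the smallest p. It read 5.95, 9.28 and 9.23 in the mutant, all at or below background, against 24.4, 19.4 and 18.7 in wild type, which is at least 1.85-fold lower in the mutant (log2 change -0.76, SE 0.17, adjusted p = 0.17; range over 20 alternatives 0.11 to 0.33). Next came CSLC12 (AT4G07960), which read 18.3, 20.6 and 14.9 in the mutant, against 29.0, 24.8 and 24.1 in wild type (log2 change -0.37, SE 0.13, adjusted p = 0.40). Neither pair of groups overlapped.

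Under tZ, 0 of 35 members passed between mutant and wild type by limma, beside 0.0352% of all probe sets. There were 4 members at an unadjusted p under 0.05, or 11.4%, beside 5.56% of all probe sets. XTH32 read 242, 261 and 225 in the mutant, against 342, 300 and 326 in wild type (log2 change -0.40, SE 0.08, adjusted p = 0.19; range over 21 alternatives 0.10 to 0.56). Without tZ the same gene was 253, 249 and 295 in the mutant, against 234, 241 and 231 in wild type (log2 change 0.17, SE 0.08, adjusted p = 0.54), so it lay on opposite sides under the 2 sprays without passing under either. EXPB1 read 15.1, 21.2 and 23.5 in the mutant under tZ, against 32.1, 31.4 and 28.4 in wild type (log2 change -0.45, SE 0.15, adjusted p = 0.67). EXPA4 and CSLC5 were the other 2, with log2 changes of -0.27 (adjusted p = 0.89) and -0.22 (adjusted p = 0.71).

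**Figure D4:**
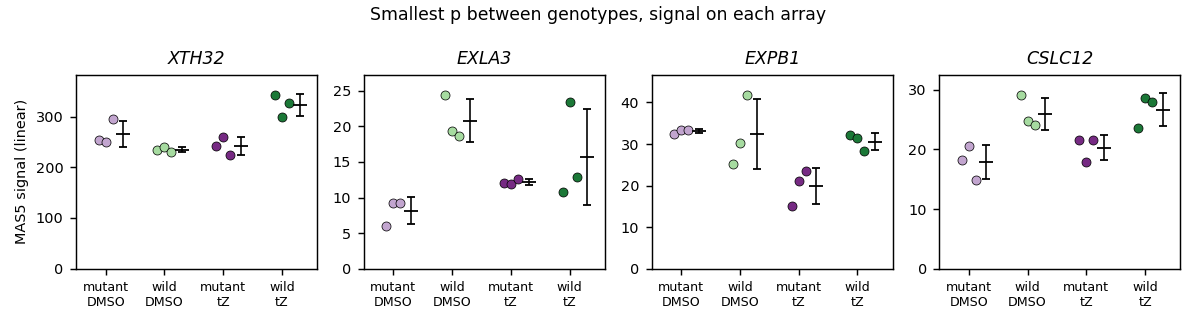
MAS5 signal on each array (vertical axis, linear from 0) of the 2 members with the smallest p in each comparison of genotypes, with the mean ± SD of 3. The mutant arrays lie below the wild type arrays for XTH32 and EXPB1 under tZ and for EXLA3 and CSLC12 under DMSO, and none passed at an adjusted p under 0.05.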

How the data were processed

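The deposited table holds MAS5 signals, an intensity per probe set on a linear scale, made by the authors with MAS5 per the submitters' processing notes. Medians of the arrays ran from 33.8 to 35.7, and the number of arrays limits the precision. For the MAS5 run, no version is given in the sources used here. The 64 control probe sets were left out and 22746 tested. Of these 13513 named 1 gene, 503 several and 8730 none.

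The test was limma 3.58.1 (R 4.3.3) on log2(signal + 10). One fit held all 12 arrays and a mean for each group, with variances moderated along a trend, two-sided p-values and Benjamini-Hochberg adjustment over all probe sets in each of 5 contrasts. The fit was tested on simulated data. Tables and plots used pandas 2.3.3 and matplotlib 3.10.9.

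Members and lists were chosen with earlier results of these data known. The rule gave full values to members that passed with tZ at a change of at least 1.5-fold on the log2(signal + 10) scale in either genotype, and to the 2 with the smallest p in each genotype contrast or interaction in which none passed. It named up to 4 others per family by size of change, and up to 3 called genes per wall list. XTH16, XTH33, CSLA03 and the CSLC genes were given more fully after their values were seen, as were counts among members brighter than background. Other wall genes and the marker genes were matched to their lists by symbol or synonym, among probe sets that name 1 gene. The lists of xyloglucan synthesis and of arabinogalactan proteins had no member matched this way. Genes not matched may still have a probe set, since 8730 probe sets name none.

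As alternatives the pseudocount was set to 1 or 50, arrays were quantile normalized or scaled to a common median, the dimmest 40% of probe sets were dropped, and the fit was run with a replicate block, no trend, array weights, only the groups compared, and each array left out. Same-numbered arrays of different groups did not deviate together (median correlation of deviations -0.0075 over 18 pairs, range -0.18 to 0.15), so the numbers were not taken to pair them.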

Additional observations from a re-analysis of the deposited data

How the results depend on the processing

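The count of members that passed with tZ was 12 in wild type, and 10 to 13 under the processing alternatives. It was 9 in the mutant, and 8 to 11. With 1 array left out it was 10 to 12 and 7 to 10. The count of 13 was that without the dimmest 40% of probe sets, where only 23 of the 35 members remained. With the replicate number as a block the counts were 12 and 10, and the block changed no member's call other than that of EXLB1 in the mutant (adjusted p = 0.044). Both genotype comparisons and the interaction had 0 members under every alternative run. Over all 35 members in both genotypes, 1446 comparisons with an alternative were made for the change with tZ. The call was lost in 26 and gained in 23. None of the 21 called changes turned its sign under an alternative, while changes that had not passed turned sign in 46 comparisons, such as EXPB1 in wild type (-0.04, and 0.11 without wild type DMSO replicate 3). Signals near background limit the dim genes, whose sizes depend on the pseudocount. The median change of all probe sets in wild type was -0.08, and -0.15 with a pseudocount of 1. Counting every probe set of a member changed nothing, since each had 1.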

Other observations

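Relatives of the members are on the array under other names, and were picked out after their values were seen. EXGT-A3, which the RefSeq table also calls XTH27, read 619, 670 and 680 with tZ in wild type, against 495, 449 and 419 under DMSO (log2 change 0.52, SE 0.09, limma adjusted p = 1.9e-04). In the mutant it read 581, 624 and 660 with tZ, against 385, 464 and 470 under DMSO (log2 change 0.49, SE 0.09, adjusted p = 3.3e-04). The tZ and DMSO arrays did not overlap in either genotype, and the change was about equal in both (interaction -0.03, 95% interval -0.30 to 0.23). AT4G30380, also called EXLB2, and the probe set shared by EXPA25 and EXPA23 lay at or below background on all 12 arrays.

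Among the 24 members with a mean signal above background, wild type tZ replicate 1 held the lowest value of its group for 13 (54.2%), against 31.7% of all such probe sets. Mutant tZ replicate 3 held the highest value of its group for 16 (66.7%), against 33.9%. XTH18, EXLA1 and EXPA16 were highest there. The cause was not tested.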
